A study of Homo sapiens with 21 samples.

Results

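The SR proteins, hnRNPs, splicing kinases and related RNA-binding regulators of splicing were followed as a set of 50 listed genes, found in the deposited count table by gene identifier and symbol. All 50 were among the 28395 genes of the table, and 48 of them were among the 16036 genes tested. The list held 12 SR proteins, 5 SR-related proteins (TRA2A, TRA2B, SRRM1, SRRM2 and SON), 6 splicing kinases, 20 hnRNPs, and a last group of 7 genes made up of PTBP1 to PTBP3, RBFOX2, MBNL1, MBNL2 and RBM47. They were chosen by name, with earlier results of these data known.

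RNA was measured in Hs578T cells, an established triple-negative breast cancer line, collected 8 h after the addition of compound. THZ531 covalently inhibits CDK12 and CDK13, which phosphorylate the tail of RNA polymerase II as it elongates, whereas lapatinib and nilotinib inhibit tyrosine kinases. The 7 groups were vehicle (DMSO), 0.1 µM THZ531, 3.16 µM lapatinib, 1 µM nilotinib, 3.16 µM lapatinib with 0.1 µM THZ531, 1 µM nilotinib with 0.1 µM THZ531, and 1.0 µM THZ531. Each group held 3 libraries, which the study describes as independent experiments, in this 1 line. All 6 treatments were compared with the same 3 DMSO libraries, so their values are given side by side.

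SR proteins bind exonic sequences through RNA recognition motifs and recruit the splicing machinery through domains rich in arginine and serine. SRPK and CLK kinases phosphorylate those domains and thereby set where SR proteins are and what they bind. hnRNPs coat nascent transcripts and often oppose the use of a splice site. Many genes of these families splice exons or introns into their own transcripts that expose them to nonsense-mediated decay, by which their levels are held in check. Counts per gene do not distinguish such transcripts from those that encode the protein.

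Total counts per library were 97612207 to 112229052, and log2 levels of replicate libraries correlated at 0.990 to 0.994. Levels are CPM, in which every library is scaled to the same total so that counts can be compared, with TMM factors, a normalization that assumes that most genes do not change, and changes are log2 fold changes (log2 FC) with the standard error (SE). The adjusted p-values come from the quasi-likelihood test of edgeR, adjusted by Benjamini-Hochberg over all 16036 genes, and a gene was called at an adjusted p under 0.05. Scaling to 13 mRNAs encoded by mitochondrial DNA in place of TMM moved the median log2 FC of all genes to -0.69 and -0.63 in the lapatinib and the nilotinib combination and -0.55 with 1.0 µM THZ531. With lapatinib alone this median was -0.15, with nilotinib alone -0.18 and with 0.1 µM THZ531 0.01, and what set these values was not tested. Thus "rose" and "fell" below are relative to the other genes unless another scaling is named. Of the defining markers of the line, VIM was at 6395 to 10123 CPM in every library, while EPCAM reached at most 10 counts, CDH1 at most 41 and CD3E at most 2. Of the receptors by which triple-negative lines are classed, PGR reached at most 4 counts and ESR1 at most 59, while ERBB2 was at 23.96 to 41.99 CPM. The summed level of 4 epithelial markers was 104.6 to 104.9 CPM in DMSO, 179.6 to 195.9 and 167.1 to 186.7 CPM with the lapatinib and the nilotinib combination and 153.1 to 161.7 CPM with 1.0 µM THZ531, nearly all of it KRT8 and KRT18. That of 4 mesenchymal markers was 10930.0 to 12229, 15506 to 17624, 15333 to 16845 and 15629 to 16800.1 CPM, and that of 3 leukocyte markers, nearly all of it CD68, was 104.4 to 124.5, 133 to 180.2, 129.6 to 156.2 and 147.1 to 177.6 CPM. That of PGR, ESR1 and ERBB2 was lower, at 34.29 to 42.38, 24.25 to 29.96, 24.06 to 31.57 and 30.1 to 33.78 CPM. These sums moved in the treatments in which the splicing genes moved, and their part in the results was not tested.

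The promoters of 5 genes with large changes are shown, since the target kinases of THZ531 act on transcription. The windows are the 250 bases before and the 50 bases after a start listed by RefSeq on GRCh38.p14. For SRSF3 and CLK1 this start is the outer end of the gene's span. The windows of RBM47 and PTBP2 lie inside the spans of their genes, and that of HNRNPDL lies nearly all inside. Capitals mark matches on either strand to the TATA box (TATAAA), the CAAT box (CCAAT) or the GC box (GGGCGG), none of which overlap another here. The first 3 genes fell and the last 2 rose with the combinations.
RBM47, chr4:40630545-40630844, minus strand: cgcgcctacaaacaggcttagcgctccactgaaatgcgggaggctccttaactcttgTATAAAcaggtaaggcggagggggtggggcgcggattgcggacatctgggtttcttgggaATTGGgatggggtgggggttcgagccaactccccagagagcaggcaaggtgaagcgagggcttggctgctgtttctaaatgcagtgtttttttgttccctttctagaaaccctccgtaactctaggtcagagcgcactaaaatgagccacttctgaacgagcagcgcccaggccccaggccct
HNRNPDL, chr4:82430176-82430475, minus strand: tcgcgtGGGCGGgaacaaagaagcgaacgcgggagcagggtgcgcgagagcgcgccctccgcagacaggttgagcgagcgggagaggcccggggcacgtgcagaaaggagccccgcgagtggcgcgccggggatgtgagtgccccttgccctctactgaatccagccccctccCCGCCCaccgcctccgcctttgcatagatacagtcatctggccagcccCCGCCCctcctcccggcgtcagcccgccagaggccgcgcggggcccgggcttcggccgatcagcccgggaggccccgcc
SRSF3, chr6:36594112-36594411, plus strand: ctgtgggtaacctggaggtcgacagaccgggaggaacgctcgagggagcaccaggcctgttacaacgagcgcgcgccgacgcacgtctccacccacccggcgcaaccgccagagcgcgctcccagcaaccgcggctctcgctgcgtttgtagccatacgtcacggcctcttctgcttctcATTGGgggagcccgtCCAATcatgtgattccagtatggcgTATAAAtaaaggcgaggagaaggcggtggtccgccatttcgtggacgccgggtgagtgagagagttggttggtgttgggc
CLK1, chr2:200864609-200864908, minus strand: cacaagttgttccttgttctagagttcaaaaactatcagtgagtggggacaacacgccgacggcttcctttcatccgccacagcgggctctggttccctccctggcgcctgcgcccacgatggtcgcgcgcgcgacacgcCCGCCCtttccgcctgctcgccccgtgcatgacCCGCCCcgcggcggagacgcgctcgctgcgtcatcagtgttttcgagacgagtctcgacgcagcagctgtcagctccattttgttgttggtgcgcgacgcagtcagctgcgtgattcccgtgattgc
PTBP2, chr1:96722388-96722687, plus strand: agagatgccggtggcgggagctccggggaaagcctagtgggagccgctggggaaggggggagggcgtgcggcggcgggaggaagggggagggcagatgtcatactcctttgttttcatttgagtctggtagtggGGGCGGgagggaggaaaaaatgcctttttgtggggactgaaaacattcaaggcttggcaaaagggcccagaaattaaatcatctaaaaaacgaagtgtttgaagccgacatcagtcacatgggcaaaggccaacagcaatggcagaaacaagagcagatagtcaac
The windows of RBM47 and SRSF3 held a TATA box and a CAAT box, and those of HNRNPDL, CLK1 and PTBP2 held GC boxes, 3, 2 and 1 of them. A window was found for 46 of the 50 members. The TATA box was present in 6 of these (13.0%) against 11.95% of all 27305 promoters, the CAAT box in 20 (43.5%) against 35.7%, and the GC box in 30 (65.2%) against 44.6%. Among the 12271 promoters of tested genes the shares were 6.53%, 36.5% and 66.5%. A match describes the letters of the window and no bound factor.

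In DMSO, the levels of the members per kilobase of their canonical transcript covered a wide range. HNRNPA2B1 (329 ± 18.1 CPM per kb, SD, n = 3) and HNRNPK (321 ± 10.6) led the order without a difference beyond their spread, and HNRNPC followed at 256 ± 13 CPM per kb. PTBP1, the general polypyrimidine tract-binding repressor, was at 187 ± 8.04 CPM per kb, whereas its neuronal paralog PTBP2 was at 5.44 ± 0.171 and PTBP3 at 16.8 ± 1.602. Among the SR proteins, SRSF2 was the highest at 159.7 ± 5.35 CPM per kb, with SRSF3 at 93.6 ± 7.001 and SRSF1 at 91.6 ± 3.35 next and not apart beyond their spread. The kinases were lower: SRPK1 was at 23.4 ± 1.31, SRPK2 at 17.7 ± 0.799, CLK3 at 12.3 ± 0.463, CLK1 at 9.46 ± 0.631 and CLK4 at 2.43 ± 0.197 CPM per kb. RBM47, a regulator of splicing and RNA editing, was at 0.776 ± 0.0865 CPM per kb. CLK2 was listed at 0 counts in all 21 libraries and SRSF12 at no more than 6 counts in any library, so neither was tested. Whether the deposited table counted reads of CLK2 at all could not be seen from it, so its 0 is not read as a level. HNRNPH2 was tested but had only 8 to 29 counts per library, and 15.8% of its exonic bases are shared with the readthrough gene RPL36A-HNRNPH2.

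Given alone, the compounds at these doses left nearly all splicing regulators without a call. With 0.1 µM THZ531, 1 of the 48 tested members was called lower and 1 higher, against 4.31% and 1.78% of all tested genes. The lower one was HNRNPDL (log2 FC -0.33 ± 0.07, SE, adjusted p = 0.0101) and the higher one was the SR protein SRSF6 (0.31 ± 0.07, adjusted p = 0.0109). HNRNPDL was at 191, 198 and 199 CPM in DMSO and at 154, 161 and 153 CPM with 0.1 µM THZ531, so these groups did not overlap. SRSF6 was at 166, 152 and 171 CPM in DMSO and at 212, 203 and 191 CPM with 0.1 µM THZ531, again without overlap. Under the mitochondrial mRNA scaling neither was called, at -0.33 (adjusted p = 0.39) and 0.31 (adjusted p = 0.424), and fitting these groups without the others called 4 members lower, with no share of all genes taken for that fit. The call of SRSF6 was also lost without replicate 2 of DMSO (0.26, adjusted p = 0.0698) or replicate 1 of 0.1 µM THZ531 (0.27, adjusted p = 0.0654). SRSF1 came next at -0.23 ± 0.07 with an adjusted p of 0.0547. With lapatinib, edgeR called 0 members in either direction (0.0561% of all genes lower and 0.256% higher), and 5 members had lower and 0 higher levels at an unadjusted p under 0.05. With nilotinib the counts were likewise 0 and 0 (0.0998% and 0.243% of all genes), and 5 and 0 at an unadjusted p under 0.05. DESeq2 also called 0 members with either inhibitor alone. The log2 FC of the 48 members lay between -0.21 and 0.15 with lapatinib and between -0.28 and 0.10 with nilotinib.

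Both combinations and the high dose of THZ531, in contrast, moved most of the members. With lapatinib and 0.1 µM THZ531, 15 members were lower and 19 higher than in DMSO, beside 37.8% and 34.3% of all genes. With nilotinib and 0.1 µM THZ531 they were 17 and 19 (37.3% and 33.7% of all genes), and with 1.0 µM THZ531 they were 18 and 18 (36.8% and 33.1%). Members were therefore called about as often as genes in general, and the median log2 FC of the 48 was -0.03, 0.10 and -0.003 in the 3 comparisons, against -0.01 over all genes in each. Large changes were fewer: 6 members fell and 2 rose by more than 1 on the log2 scale with lapatinib and THZ531 (21.3% and 7.90% of all genes), 5 and 2 with nilotinib and THZ531 (20.8% and 6.54%), and 4 and 0 with 1.0 µM THZ531 (18.9% and 5.77%). Across the 3 comparisons, which share the DMSO libraries, 13 members were called lower and 15 higher in each (27.1% and 31.2%, beside 30.8% and 27.2% of all genes), 7 were called in none (14.6%, beside 17.0%), and 1, CLK3, was called in opposite directions. Under the mitochondrial mRNA scaling the counts became 33 lower and 2 higher, 30 and 2, and 29 and 0, and under library size alone 8, 9 and 8 members were higher. The median log2 FC of all genes under the mitochondrial mRNA scaling was -0.69, -0.63 and -0.55, and that of the members -0.71, -0.53 and -0.55. Shares of all genes called under these 2 scalings were not taken.

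**Figure D1:**
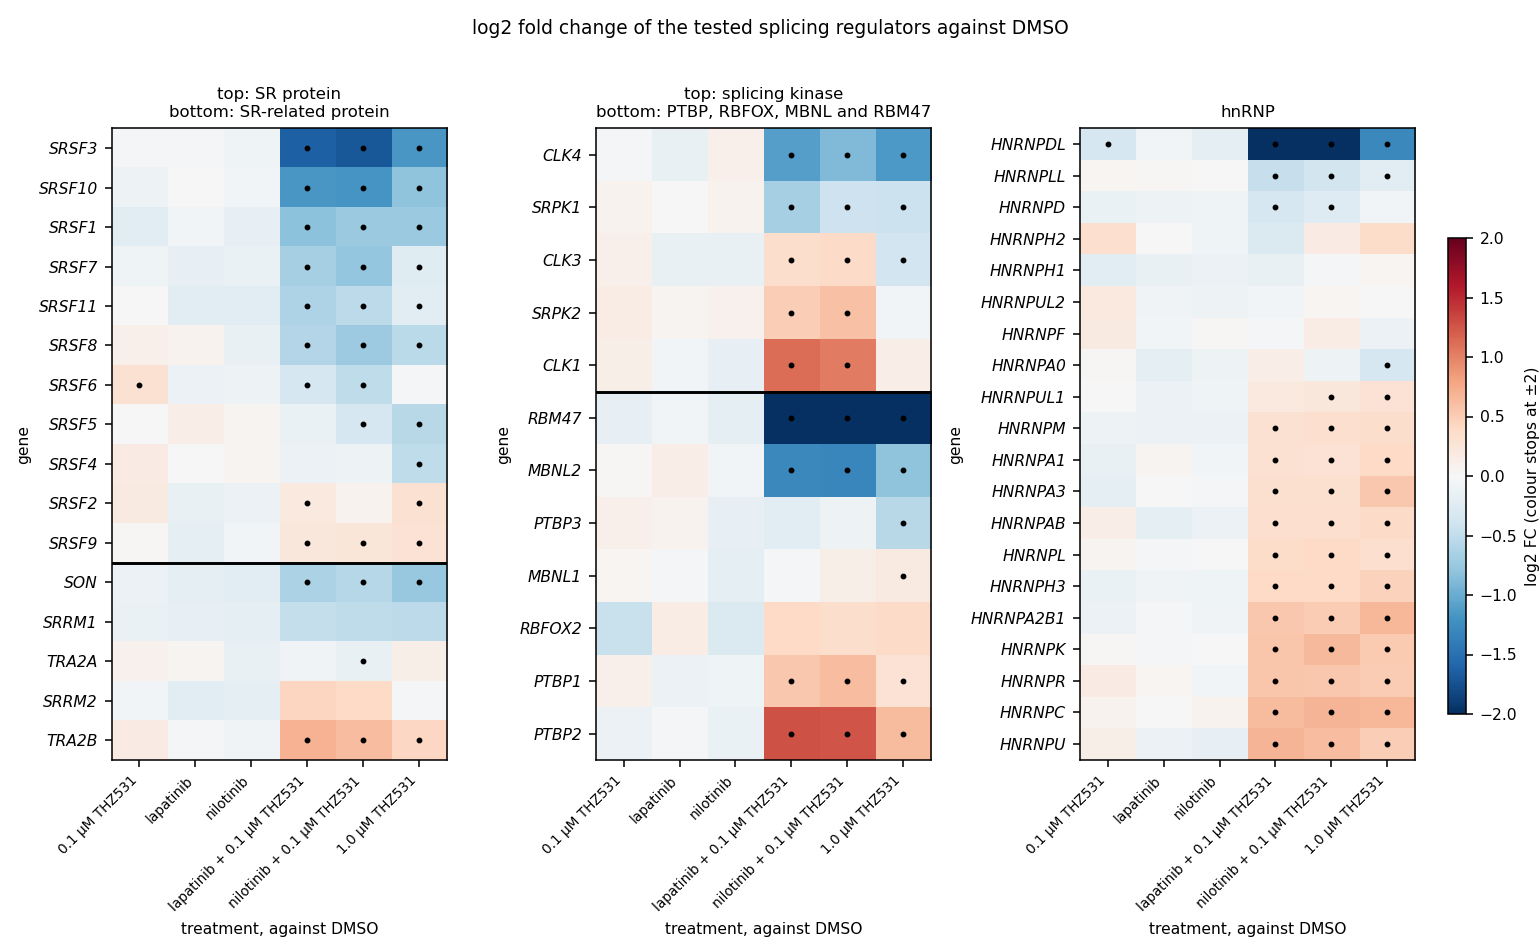
Colour gives the log2 FC against DMSO of each of the 48 tested members (rows, ordered within a role by the lapatinib combination) for 6 treatments (columns), and a dot marks an adjusted p under 0.05 in edgeR. The 3 columns on the left of each panel are pale, with 2 dots in all, and the 3 on the right hold falls led by RBM47, HNRNPDL and SRSF3 and rises led by PTBP2 and CLK1, which with TMM scaling include 11 hnRNPs in all 3 columns and under the mitochondrial mRNA scaling 0.

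Of the SR proteins, most fell. With lapatinib and THZ531, 7 of the 11 tested SR proteins were called lower and 2 higher (63.6% and 18.2%, beside 37.8% and 34.3% of all genes). With nilotinib and THZ531 they were 8 and 1 (72.7% and 9.09%, beside 37.3% and 33.7%), and with 1.0 µM THZ531 8 and 2 (72.7% and 18.2%, beside 36.8% and 33.1%). Under the mitochondrial mRNA scaling 11, 11 and 9 were lower and 0 higher, with no share of all genes taken under it. Relative to the median of all genes, the median log2 FC of the 11 was -0.57, -0.51 and -0.503 under that scaling. The median log2 FC of the 11 with TMM scaling was -0.58, -0.52 and -0.51. Their summed level was 1983 ± 74.9 CPM (SD, n = 3) in DMSO, 1325 ± 70.97 and 1284 ± 29.5 CPM with the lapatinib and the nilotinib combination, and 1495 ± 1.62 CPM with 1.0 µM THZ531, so that the treated libraries lay below all DMSO libraries.

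SRSF3, the smallest SR protein, which regulates splicing and links it to mRNA export, fell furthest. It lies at chr6:36594362-36605600 on the plus strand and has 6 exons in its canonical transcript. It was at 401, 364 and 423 CPM in DMSO, at 138, 127 and 117 CPM with lapatinib and THZ531, at 126, 119 and 122 CPM with nilotinib and THZ531, and at 162, 189 and 179 CPM with 1.0 µM THZ531. With the 3 single low-dose treatments it stayed at 357 to 426 CPM and overlapped DMSO. The log2 FC was -1.64 ± 0.08 (SE, adjusted p = 6.56e-13), -1.70 ± 0.08 (adjusted p = 4.54e-13) and -1.16 ± 0.08 (adjusted p = 1.44e-10). SRSF10, a splicing repressor activated by dephosphorylation, was second. Its levels were 145, 126 and 138 CPM in DMSO, 67.98, 55.3 and 59.6 CPM with lapatinib and THZ531, 60.3, 57.4 and 63.8 CPM with nilotinib and THZ531, and 77.5, 77.1 and 78.99 CPM with 1.0 µM THZ531. All 9 treated libraries were below DMSO, at log2 FC of -1.16 ± 0.07, -1.17 ± 0.07 and -0.81 ± 0.07.

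SRSF1, a founding SR protein, was at 508, 472 and 488 CPM in DMSO and at 305, 258 and 269 CPM with lapatinib and THZ531, with no overlap. It fell in all 3 treatments, with a log2 FC of -0.82 ± 0.07 (adjusted p = 1.44e-09), of -0.74 ± 0.07 with nilotinib and THZ531 and of -0.74 ± 0.07 with 1.0 µM THZ531. SRSF7 was lower at -0.66 ± 0.09, -0.77 ± 0.09 and -0.24 ± 0.09, SRSF8 at -0.58 ± 0.07, -0.73 ± 0.07 and -0.53 ± 0.07 and SRSF11 at -0.62 ± 0.07, -0.52 ± 0.07 and -0.20 ± 0.07, in the same order. The calls of SRSF7 and SRSF11 with 1.0 µM THZ531 rested on single libraries: SRSF7 was at -0.20 (adjusted p = 0.0968) without replicate 1 of that group and likewise not called without its replicate 3 or DMSO replicate 1 or 3, and SRSF11 was at -0.17 (adjusted p = 0.0708) without replicate 3 and not called without replicate 2. SRSF6 fell with both combinations (-0.34 ± 0.07 and -0.51 ± 0.07) and was at -0.05 ± 0.07 with 1.0 µM THZ531. SRSF5 was at -0.14 ± 0.09, -0.34 ± 0.09 and -0.56 ± 0.09 in the 3 treatments, of which the last 2 were called, and SRSF4 at -0.12 ± 0.11, -0.11 ± 0.11 and -0.51 ± 0.12, of which the last was called. Other annotated genes share 35.1% of the exonic bases of SRSF1, and since counting was without strand, reads from these could not be told apart.

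SRSF9 and SRSF2 were the SR proteins with higher levels. SRSF9 was at 51.5, 55.8 and 56.2 CPM in DMSO and at 67.9, 59.98 and 62.9 CPM with lapatinib and THZ531, and its log2 FC was 0.22 ± 0.07, 0.24 ± 0.07 and 0.29 ± 0.07. SRSF2, which binds exonic enhancers, was at 304, 291 and 311 CPM in DMSO, at 370.4, 328 and 340.2 CPM with lapatinib and THZ531, and at 360.3, 375 and 383 CPM with 1.0 µM THZ531, and its log2 FC was 0.20 ± 0.06, 0.08 ± 0.06 and 0.31 ± 0.06, of which the second was not called. Both turned to lower levels under the mitochondrial mRNA scaling, at -0.46 for SRSF9 and -0.48 for SRSF2 with lapatinib and THZ531. Without replicate 1 of the lapatinib combination SRSF2 was at 0.15 (adjusted p = 0.0622). SRSF9 shares 46.7% of its exonic bases with GATC and NRAV, and SRSF2 27.7% with MFSD11 and MIR636.

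The SR-related proteins did not move as one, with 1, 2 and 1 of the 5 called lower and 1 called higher in each of the 3 treatments. These were 20%, 40% and 20% lower and 20% higher, beside 36.8% to 37.8% and 33.1% to 34.3% of all genes. TRA2B, a sequence-specific activator of exon inclusion, was at 286, 273 and 293 CPM in DMSO, at 495, 422 and 459 CPM with lapatinib and THZ531, at 475, 419 and 419 CPM with nilotinib and THZ531, and at 366, 365 and 401 CPM with 1.0 µM THZ531. It rose, with a log2 FC of 0.69 ± 0.07, 0.62 ± 0.07 and 0.41 ± 0.07 (adjusted p = 2.79e-08, 1.29e-07 and 3.07e-05), which under the mitochondrial mRNA scaling were 0.01, 0.01 and -0.13. Its paralog TRA2A was at -0.07 ± 0.06, -0.16 ± 0.06 and 0.11 ± 0.06, and only the second was called (adjusted p = 0.0262), a call lost on leaving out each of 4 libraries in turn (adjusted p = 0.13 without replicate 2 of that group). SON, a large nuclear speckle protein, was at 303, 334 and 299 CPM in DMSO and at 161, 233 and 207 CPM with lapatinib and THZ531, lower in every treated library. It fell, with a log2 FC of -0.64 ± 0.15, -0.58 ± 0.15 and -0.75 ± 0.15 (adjusted p = 0.000715 in the first). The other large speckle proteins were too variable to call. SRRM1 was at 117, 162 and 122 CPM in DMSO and 70.98, 110.4 and 108 CPM with lapatinib and THZ531 (-0.47 ± 0.25, adjusted p = 0.102), and SRRM2 at 314, 445 and 323 CPM and at 318, 553 and 589 CPM (0.43 ± 0.23, adjusted p = 0.0972). For SON, SRRM1 and SRRM2 the library of replicate 1 was the lowest of each combination.

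The splicing kinases parted within their families, with 2, 2 and 3 of the 5 tested called lower and 3, 3 and 0 higher. Over all genes 37.8%, 37.3% and 36.8% were lower and 34.3%, 33.7% and 33.1% higher. CLK1, a dual-specificity kinase that phosphorylates SR proteins in the nucleus, was at 17.3, 18.7 and 16.4 CPM in DMSO, at 36.3, 39.2 and 38.1 CPM with lapatinib and THZ531, at 33.6, 34.9 and 38.98 CPM with nilotinib and THZ531, and at 22.9, 14.3 and 20.1 CPM with 1.0 µM THZ531. Both combinations were clear of DMSO, whereas the high dose of THZ531 straddled it. The log2 FC was 1.12 ± 0.12 (adjusted p = 5.34e-08), 1.04 ± 0.12 (adjusted p = 1.62e-07) and 0.13 ± 0.12 (adjusted p = 0.34), and the first 2 stayed above 0 under the mitochondrial mRNA scaling, at 0.44 and 0.41. CLK4, the closest paralog of CLK1, went the other way. It was at 6.49, 6.21 and 5.53 CPM in DMSO, at 2.41, 3.27 and 2.78 CPM with lapatinib and THZ531, at 2.94, 3.101 and 3.85 CPM with nilotinib and THZ531, and at 3.08, 2.13 and 3.02 CPM with 1.0 µM THZ531. This was a fall in every treated library, at log2 FC of -1.11 ± 0.14, -0.88 ± 0.14 and -1.15 ± 0.14 (adjusted p = 5.02e-07, 8.88e-06 and 3.6e-07). CLK3 was at 21.8, 23.4 and 23.2 CPM in DMSO, 27.3, 32.8 and 27.8 CPM with lapatinib and THZ531, 27.1, 31.8 and 30.3 CPM with nilotinib and THZ531 and 18.1, 15.1 and 19.4 CPM with 1.0 µM THZ531. It thus rose with the combinations (0.36 ± 0.09 and 0.38 ± 0.09) and fell with 1.0 µM THZ531 (-0.38 ± 0.09, adjusted p = 0.00119), but under the mitochondrial mRNA scaling its values with the combinations were -0.32 and -0.24.

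The SR protein kinases also parted. SRPK1 was at 108, 97.4 and 99.9 CPM in DMSO, 65.3, 66.2 and 61.5 CPM with lapatinib and THZ531, 79.4, 71.5 and 77.3 CPM with nilotinib and THZ531 and 79.2, 76.1 and 72.1 CPM with 1.0 µM THZ531. All 9 treated libraries were below DMSO, at log2 FC of -0.66 ± 0.06, -0.42 ± 0.06 and -0.43 ± 0.06 (adjusted p = 9.07e-09 in the first), and 28.1% of its exonic bases are shared with LHFPL5 on the opposite strand. SRPK2 was at 67.9, 65.02 and 62.05 CPM in DMSO, 83.1, 102 and 89.3 CPM with lapatinib and THZ531, 87.6, 94.1 and 112 CPM with nilotinib and THZ531 and 69.5, 52.2 and 66.5 CPM with 1.0 µM THZ531. It rose with the combinations (0.49 ± 0.10, adjusted p = 0.000156, and 0.59 ± 0.10) and was at -0.05 ± 0.10 with 1.0 µM THZ531, and under the mitochondrial mRNA scaling both rises turned, to -0.19 and -0.04. In CPM, the summed level of the 5 tested kinase genes, without a value for CLK2, was 213 ± 7.71 in DMSO, 226 ± 15.7 and 243 ± 17.1 with the combinations and 178 ± 16.8 with 1.0 µM THZ531.

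Among the 20 hnRNPs, 11 were called higher and 3 lower with lapatinib and THZ531 (55% and 15%). With nilotinib and THZ531 they were 12 and 3, and with 1.0 µM THZ531 12 and 3 (60% and 15% each). Of all genes 34.3%, 33.7% and 33.1% were higher and 37.8%, 37.3% and 36.8% lower. Under the mitochondrial mRNA scaling, in contrast, 0 hnRNPs were higher and 13, 10 and 7 were lower. Under library size alone 4, 4 and 7 were higher, and no shares of all genes were taken under either scaling. Against the median of all genes, 13 of the 20 lay above it with lapatinib and THZ531 and 15 in each of the other comparisons. The rises were small. HNRNPA1, HNRNPA2B1, HNRNPA3, HNRNPAB, HNRNPC, HNRNPH3, HNRNPK, HNRNPL, HNRNPM, HNRNPR and HNRNPU were called higher in all 3 treatments, at log2 FC between 0.28 and 0.68, none of which was above 0.12 (HNRNPA2B1 with 1.0 µM THZ531) under the mitochondrial mRNA scaling. In CPM, the summed hnRNP level was 8195 ± 233 in DMSO, 10675 ± 219 and 10760.4 ± 174 in the lapatinib and the nilotinib combination and 10901 ± 232 with 1.0 µM THZ531.

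HNRNPU, a scaffold attachment factor that binds both RNA and chromatin, was at 815, 977 and 821 CPM in DMSO, 1088, 1544 and 1549 CPM with lapatinib and THZ531, 1047, 1389 and 1574 CPM with nilotinib and THZ531 and 1415, 1074 and 1189 CPM with 1.0 µM THZ531, all above DMSO. It rose, with a log2 FC of 0.68 ± 0.16, 0.62 ± 0.16 and 0.49 ± 0.16 (adjusted p = 0.000721 in the first), and under the mitochondrial mRNA scaling was at -0.01, -0.01 and -0.06. Without replicate 1 of 1.0 µM THZ531 its last value was 0.38 (adjusted p = 0.0572). Replicate 1 was its lowest library in each combination, and genes on the opposite strand, COX20 among them, share 19% of its exonic bases. HNRNPC, which packages nascent transcripts and binds uridine tracts, was at 838, 763 and 830.4 CPM in DMSO, 1409, 1138 and 1232 CPM with lapatinib and THZ531, 1427, 1255 and 1208 CPM with nilotinib and THZ531, and 1209, 1351 and 1279 CPM with 1.0 µM THZ531. It rose, with a log2 FC of 0.64 ± 0.08, 0.68 ± 0.08 and 0.66 ± 0.08 (adjusted p = 7.59e-07 in the first), and was at -0.05 with lapatinib and THZ531 under the mitochondrial mRNA scaling. HNRNPA2B1, which with HNRNPK led the levels per kilobase in DMSO, was at 1141, 1268 and 1175 CPM in DMSO and at 1751, 1674 and 1805 CPM with lapatinib and THZ531, a rise of 0.55 ± 0.05, which became -0.14 under that scaling. HNRNPA1 and HNRNPA3 have 74 and 16 annotated pseudogenes, and HNRNPA3 shares 54.8% of its exonic bases with NFE2L2 and MIR4444-1, so their counts are less certain.

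HNRNPDL, an hnRNP D-like protein that regulates its own transcript through decay exons, fell furthest of the family. It lies at chr4:82422564-82430462 on the minus strand with 8 exons in its canonical transcript. From 191, 198 and 199 CPM in DMSO it went to 42.1, 44.4 and 40.5 CPM with lapatinib and THZ531, to 47.2, 45.9 and 43.6 CPM with nilotinib and THZ531, and to 75.6, 90.8 and 74 CPM with 1.0 µM THZ531. The 3 groups were clear of DMSO and of the single treatments, which lay at 153 to 192 CPM. The log2 FC was -2.21 ± 0.08 (adjusted p = 4.77e-15), -2.10 ± 0.08 (adjusted p = 9.8e-15) and -1.29 ± 0.07 (adjusted p = 1.07e-11). Its neighbour and paralog HNRNPD, also named AUF1, at chr4:82352498-82373991 on the minus strand, was at -0.33 ± 0.06, -0.25 ± 0.06 and -0.06 ± 0.06, of which the first 2 were called. HNRNPLL, a regulator of CD45 splicing in lymphocytes, was at 44.4, 39.8 and 42.97 CPM in DMSO and 32.2, 29.8 and 30.7 CPM with lapatinib and THZ531. It fell, with a log2 FC of -0.46 ± 0.07, -0.37 ± 0.07 and -0.22 ± 0.07 (adjusted p = 9.75e-06 in the first), and the last call was lost without replicate 1 of 1.0 µM THZ531 (adjusted p = 0.0594) or replicate 1 of DMSO. HNRNPA0 was at 0.14 ± 0.08, -0.10 ± 0.08 and -0.34 ± 0.08, of which the last was called. HNRNPUL1 was at 0.19 ± 0.09, 0.23 ± 0.09 and 0.29 ± 0.09, of which the last 2 were called, the second not without replicate 3 of the nilotinib combination (adjusted p = 0.142) or, in turn, each of 3 other libraries, and all 3 were below 0 under the mitochondrial mRNA scaling. HNRNPF, HNRNPH1, HNRNPH2 and HNRNPUL2 were called in none of the 3 comparisons.

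**Figure D2:**
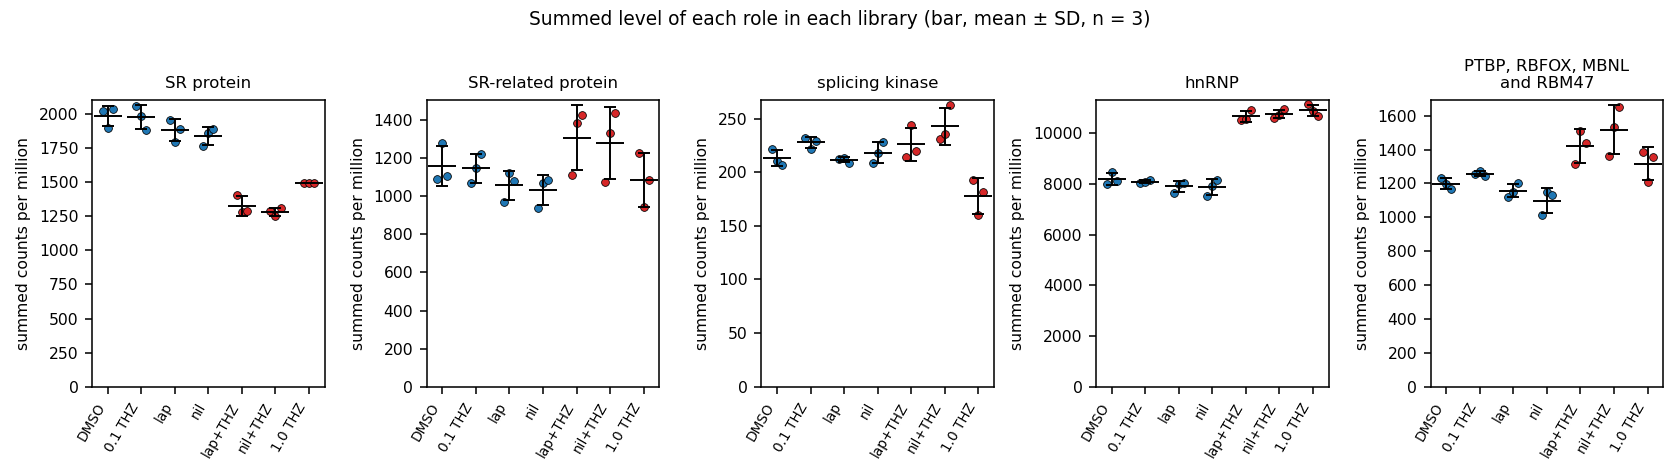
Points are the summed CPM (y axis) of the genes of each role in each of the 21 libraries (x axis, by group), with the mean and SD of each group as bars, blue for DMSO and the 3 single low-dose treatments and red for both combinations and 1.0 µM THZ531. The SR proteins sit lower in all 9 red libraries than in DMSO and the hnRNPs sit higher with TMM scaling, under which 11 or 12 hnRNPs were called higher against 0 under the mitochondrial mRNA scaling.

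In the last group, RBM47 showed the largest change of all members in each of the 3 treatments. It lies at chr4:40423280-40630852 on the minus strand, a span of 207573 bases. It had 530, 484 and 407 counts in DMSO, 22, 25 and 16 counts with lapatinib and THZ531, 14, 4 and 13 counts with nilotinib and THZ531, and 80, 66 and 80 counts with 1.0 µM THZ531. In CPM these were 4.27, 4.18 and 3.46 in DMSO, 0.240, 0.274 and 0.178 and 0.151, 0.0432 and 0.143 in the lapatinib and the nilotinib combination, and 0.840, 0.691 and 0.856 with 1.0 µM THZ531. No treated library came near DMSO, and both combinations lay below the high dose without overlap. It fell, with a log2 FC of -4.10 ± 0.22 (adjusted p = 1.74e-12), -5.13 ± 0.24 (adjusted p = 3.25e-13) and -2.32 ± 0.19 (adjusted p = 1.3e-09). MBNL2, a zinc-finger regulator of developmental splicing, was at 84.4, 72.8 and 75.2 CPM in DMSO, 32.8, 33.6 and 28.6 CPM with lapatinib and THZ531, 30.1, 29.6 and 34.8 CPM with nilotinib and THZ531, and 46.9, 42.5 and 43.5 CPM with 1.0 µM THZ531. It fell, with a log2 FC of -1.29 ± 0.08, -1.30 ± 0.08 and -0.81 ± 0.08 (adjusted p = 2.24e-11, 2.17e-11 and 2.77e-08). Its paralog MBNL1 was at -0.04 ± 0.08, 0.12 ± 0.08 and 0.18 ± 0.08, of which the last was called (adjusted p = 0.0416) but not on leaving out each of 5 libraries in turn (0.12, adjusted p = 0.217, without replicate 1 of that group).

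PTBP2, whose transcript PTBP1 represses in cells other than neurons, rose furthest of all members with the combinations. It was at 18.6, 18.2 and 17.4 CPM in DMSO, at 43.96, 43.96 and 42.7 CPM with lapatinib and THZ531, at 45.8, 40.2 and 43.3 CPM with nilotinib and THZ531, and at 29.4, 24.8 and 29.96 CPM with 1.0 µM THZ531. The high dose lay above DMSO and below both combinations, without overlap. The log2 FC was 1.27 ± 0.08 (adjusted p = 2.24e-11), 1.25 ± 0.08 (adjusted p = 2.91e-11) and 0.63 ± 0.08 (adjusted p = 6.44e-07), and stayed above 0 under the mitochondrial mRNA scaling, at 0.59, 0.63 and 0.09. PTBP1 itself was at 578, 628 and 589.7 CPM in DMSO and at 768, 919.9 and 912 CPM with lapatinib and THZ531, above DMSO in every library. It rose, with a log2 FC of 0.53 ± 0.08, 0.61 ± 0.08 and 0.28 ± 0.08 (adjusted p = 8.62e-06 in the first), which turned to -0.15, -0.01 and -0.25 under the mitochondrial mRNA scaling. PTBP3 was at -0.21 ± 0.15, -0.10 ± 0.15 and -0.56 ± 0.16, of which the last was called. RBFOX2 could not be judged, with 24.2, 10.9 and 10.1 CPM in the DMSO libraries and log2 FC of 0.39 ± 0.32, 0.35 ± 0.32 and 0.38 ± 0.32.

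The combinations were then set against 1.0 µM THZ531 directly. With lapatinib and THZ531, 14 members were lower and 9 higher than with the high dose (16.1% and 12.8% of all genes), and with nilotinib and THZ531 13 and 10 (13.0% and 11.2%). Fitting these groups without the others gave 9 lower with lapatinib and THZ531 and 7 lower and 6 higher with nilotinib and THZ531, and the mitochondrial mRNA scaling gave 4 higher with the first and 8 lower and 4 higher with the second. Shares of all genes were not taken in these alternatives. Of the 6 members that fell by more than 1 on the log2 scale with lapatinib and THZ531, all but CLK4 were lower in the combinations than with the high dose. RBM47 was at -1.78 ± 0.23 and -2.81 ± 0.26, HNRNPDL at -0.92 ± 0.07 and -0.81 ± 0.07, SRSF3 at -0.48 ± 0.08 and -0.53 ± 0.08, MBNL2 at -0.48 ± 0.08 and -0.49 ± 0.08, and SRSF10 at -0.35 ± 0.07 and -0.36 ± 0.07, with the adjusted p of RBM47 at 1.11e-05 and 4.11e-07. Genes named for large changes in the lapatinib combination are favoured in advance to differ from the high dose in the same direction. CLK1 was higher by 0.99 ± 0.12 and 0.91 ± 0.12, CLK3 by 0.74 ± 0.09 and 0.76 ± 0.09, PTBP2 by 0.63 ± 0.08 and 0.62 ± 0.08, and SRPK2 by 0.55 ± 0.10 and 0.64 ± 0.10. SRSF4 was higher in the combinations too, by 0.39 ± 0.12 and 0.41 ± 0.12, calls that were lost on fitting these groups without the others (adjusted p = 0.118 and 0.129), under the mitochondrial mRNA scaling (adjusted p = 0.244 and 0.148) and without replicate 2 of 1.0 µM THZ531 (0.22 and 0.23, adjusted p = 0.0759 and 0.0622), and for 1 combination each without its replicate 2 (lapatinib) or replicate 3 (nilotinib). CLK4 was at 0.04 ± 0.14 and 0.27 ± 0.14 and SRSF1 at -0.08 ± 0.07 and -0.00056 ± 0.07, neither called. Of the 20 hnRNPs, 4 were lower and 1 higher with lapatinib and THZ531 and 4 and 2 with nilotinib and THZ531.

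Between both combinations edgeR called 0 members (0.736% of all genes lower and 0.730% higher with lapatinib than with nilotinib). At an unadjusted p under 0.05, 2 were lower and 4 higher, and DESeq2 called 1 lower. The largest difference was that of RBM47, which with lapatinib and THZ531 was at 1.03 ± 0.31 relative to nilotinib and THZ531 (adjusted p = 0.114), and SRPK1 was at -0.24 ± 0.06 (adjusted p = 0.0567). Values of this kind do not show that the combinations acted alike on these genes.

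The change with each combination was also compared with the sum of the changes with its 2 compounds alone, as an interaction on the log2 scale. With lapatinib, 14 members were below and 19 above that sum (32.0% and 28.2% of all genes), and with nilotinib 14 and 22 (31.2% and 25.6%). RBM47 was at -3.89 ± 0.28 and -4.77 ± 0.30, HNRNPDL at -1.82 ± 0.11 and -1.59 ± 0.10, SRSF3 at -1.55 ± 0.11 and -1.57 ± 0.11, PTBP2 at 1.42 ± 0.11 and 1.501 ± 0.11, and CLK1 at 1.05 ± 0.17 and 1.09 ± 0.17 with lapatinib and with nilotinib. These genes were named for large changes with the lapatinib combination. The interaction contains that same change, so they are favoured in advance to depart from the sum in its direction. Under the mitochondrial mRNA scaling 23 members were below and 2 above the sum with lapatinib and 2 were above it with nilotinib, and with library size alone 22 were below and 7 above with lapatinib and 11 were above with nilotinib. Shares of all genes were not taken under these scalings.

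Other genes of the splicing pathway gave a background for the members. Of 89 tested core spliceosome genes, 34 were lower and 39 higher with lapatinib and THZ531 (38.2% and 43.8%, beside 37.8% and 34.3% of all genes), 35 and 40 with nilotinib and THZ531, and 33 and 35 with 1.0 µM THZ531, at a median log2 FC of 0.06, 0.08 and 0.06. MFAP1, a component of the spliceosomal B complex, was at 24.5, 27.2 and 23.8 CPM in DMSO and 4.86, 5.69 and 5.3 CPM with lapatinib and THZ531 (log2 FC -2.25 ± 0.10). PRPF3, a U4/U6 snRNP protein, fell from 48.9, 50.8 and 48.03 CPM to 10.4, 12.2 and 10.7 CPM (-2.15 ± 0.09). SNRPD2, an Sm core protein, and ZCRB1, of the minor spliceosome, were higher by 0.87 ± 0.14 and 0.84 ± 0.10. Of 51 tested other splicing regulators, 21 were lower and 19 higher with each combination (41.2% and 37.3%), and 21 and 17 with 1.0 µM THZ531, at a median of -0.13, -0.11 and -0.16. RBM23, an RNA-binding protein related to RBM39, fell from 62.5, 60.5 and 61.6 CPM to 6.01, 5.13 and 4.81 CPM with lapatinib and THZ531 (-3.53 ± 0.08). NOVA2, a neuronal regulator, was at 0.274, 0.233 and 0.315 CPM in DMSO and 0.0874, 0.0219 and 0.0223 CPM with lapatinib and THZ531 (-2.61 ± 0.62), near the floor of detection. KHDRBS3, a STAR family regulator, and RALY, an hnRNP C-like protein, were higher by 1.43 ± 0.16 and 0.89 ± 0.05. The rises of SNRPD2, ZCRB1, KHDRBS3 and RALY were not recomputed under the mitochondrial mRNA scaling. That scaling put the median gene at -0.69 with this treatment.

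Of 18 exon junction and nonsense-mediated decay genes, 9 were lower and 3 higher with lapatinib and THZ531 (50% and 16.7%, beside 37.8% and 34.3% of all genes), 10 and 3 with nilotinib and THZ531 and 8 and 2 with 1.0 µM THZ531, at a median log2 FC of -0.20, -0.25 and -0.11. SMG9, a partner of the SMG1 kinase that phosphorylates UPF1, fell from 22.8, 31.3 and 25.3 CPM to 3.63, 2.86 and 3.43 CPM with lapatinib and THZ531 (-3.00 ± 0.14). UPF2, which bridges UPF1 to the exon junction complex, fell from 39.2, 46.6 and 37.2 CPM to 18.1, 20.7 and 20.6 CPM (-1.05 ± 0.15). SAP18 was higher by 0.63 ± 0.08 with lapatinib and THZ531. This rise was measured with TMM scaling and was not recomputed under the mitochondrial mRNA scaling, whose shift of the median gene of -0.69 with this treatment is close to it in size.

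Features of the genes were set beside their changes as a description. The tested members were shorter than genes in general, with a median span of 19691 bases against 27777 over 15857 tested genes with coordinates, and the SR proteins spanned 8077 bases at the median. Across the 48 members, Spearman's rho of span with log2 FC was -0.0055, 0.04 and -0.10 with lapatinib and THZ531, nilotinib and THZ531 and 1.0 µM THZ531, against -0.18, -0.14 and -0.15 over 15275 tested genes. The same coefficient for the number of exons in the canonical transcript was 0.36, 0.42 and 0.25 in members and -0.09, -0.05 and -0.03 over all, and that of transcript length -0.18, -0.21 and -0.20 and -0.30, -0.27 and -0.29, each comparison resting on the same 6 libraries for all points and all on the same DMSO libraries. Of the 7 members that span over 100 kb, 2 were called lower and 2 higher with lapatinib and THZ531, beside 37.8% and 34.3% of all genes. RBM47 and MBNL2 were the lower and SRPK2 and PTBP2 the higher ones. With nilotinib and THZ531 the counts were 2 and 2 (37.3% and 33.7% of all genes), and with 1.0 µM THZ531 3 and 2 (36.8% and 33.1%). Shares among all genes that span over 100 kb were not taken. GENCODE lists a transcript subject to nonsense-mediated decay for 40 of the 48 tested members (83.3%), against 40.7% of tested genes, and a transcript with a retained intron for 39 (81.2%) against 52.9%. All 11 tested SR proteins and all 5 tested kinases have an annotated decay transcript, and both genes that fell and genes that rose were among them.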

How the data were processed

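RNA-seq was analysed in 21 libraries of Hs578T cells, 3 in each of 7 groups taken from the sample labels. The values are raw counts per gene as the authors deposited them: per the study's methods, unstranded polyA-selected libraries were sequenced as 100-bp paired ends, and reads were aligned to GRCh38 with HISAT2 2.1.0 and counted with featureCounts. The annotation used and whether pairs or ends were counted are not given in the sources used here, so halved counts were tried as an alternative. The table held 28395 gene identifiers, of which 27745 were matched to a symbol and carried 99.98% of the counts, and 0 columns were left unused.

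Counts were filtered with filterByExpr, scaled with TMM and tested with edgeR's quasi-likelihood test (edgeR 4.0.16, R 4.3.3) in 1 fit of all 21 libraries, with Benjamini-Hochberg adjustment over 16036 genes. SE is the log2 FC divided by the square root of F. DESeq2 1.42.0, 4 other scalings, 2 other filters, a replicate block, fits of only the groups compared, halved counts and fits without each library were alternatives. Tables and figures were made with Python 3.11.15, pandas 2.3.3, SciPy 1.17.1 and matplotlib 3.10.9, and the fit was tested on simulated data. These held few changed genes, as many up as down, and so could not test the scaling where most genes change. Gene positions, overlaps and transcript types are from GENCODE on hg38 and promoters from RefSeq on GRCh38.p14.

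The members and pathway lists were chosen with earlier results of these data known. Levels in every library were planned, in each role and list, for up to 2 members with the largest falls and 2 with the largest rises with lapatinib and THZ531 among those called with no overlap with DMSO, and for groups of paralogs. Those of SRSF1, SRSF2, SRRM1, SRRM2, HNRNPA2B1 and RBFOX2, and of SRSF6 with 0.1 µM THZ531, were added after values were seen. A gene of a pathway list that the rule named is not reported here. The p-values measure the spread between these libraries of 1 cell line. Chi-square tests between replicates gave 7.78 to 145 per degree of freedom, so no library was a copy of another within sampling noise.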

Additional observations from a re-analysis of the deposited data

Results flagged for a closer look

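The log2 change from DMSO with each combination differed from the sum of its single-compound changes by a test of that difference (interaction term, edgeR, adjusted p under 0.05) in 14 members below and 19 above the sum with lapatinib and in 14 below and 22 above with nilotinib. Among the members whose library values the naming rule selected, SRSF2 and SON had no called interaction with either inhibitor, and SRPK2 had none with lapatinib. The called interactions with lapatinib were SRSF3 at -1.55, SRSF10 at -1.06, SRSF9 at 0.396, TRA2B at 0.549, CLK4 at -0.931, SRPK1 at -0.722, CLK1 at 1.05, HNRNPDL at -1.82, HNRNPLL at -0.521, HNRNPU at 0.687, HNRNPC at 0.553, RBM47 at -3.89, MBNL2 at -1.44, PTBP2 at 1.42 and PTBP1 at 0.55. With nilotinib they were SRSF3 at -1.57, SRSF10 at -1.01, SRSF9 at 0.259, TRA2B at 0.532, CLK4 at -0.953, SRPK1 at -0.557, CLK1 at 1.09, SRPK2 at 0.37, HNRNPDL at -1.59, HNRNPLL at -0.415, HNRNPU at 0.671, HNRNPC at 0.534, RBM47 at -4.77, MBNL2 at -1.26, PTBP2 at 1.5 and PTBP1 at 0.587. RBM47 was the lowest and PTBP2 the highest of these with either inhibitor. The rule selected these members by their change with the lapatinib combination, which the interaction contains, so such an order is favoured in advance. The interactions of SRSF9 and PTBP1 with lapatinib and of SRSF9 and SRPK2 with nilotinib were below 0 under the mitochondrial mRNA scaling.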

How the results depend on the processing

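Among the alternatives run, a log2 FC called with TMM scaling or in the alternative was reversed only under another scaling, and the values named next are these. Under the mitochondrial mRNA scaling the log2 FC with lapatinib and THZ531 turned below 0 for SRSF2 at -0.484, SRSF9 at -0.458, CLK3 at -0.321, SRPK2 at -0.189, HNRNPA0 at -0.545, HNRNPA1 at -0.37, HNRNPA2B1 at -0.136, HNRNPA3 at -0.356, HNRNPAB at -0.347, HNRNPC at -0.0473, HNRNPH3 at -0.29, HNRNPK at -0.124, HNRNPL at -0.315, HNRNPM at -0.375, HNRNPR at -0.124, HNRNPU at -0.00797, HNRNPUL1 at -0.492 and PTBP1 at -0.151. With nilotinib and THZ531 it did so for SRSF2 at -0.545, SRSF9 at -0.381, CLK3 at -0.241, SRPK2 at -0.0387, HNRNPA1 at -0.334, HNRNPA2B1 at -0.107, HNRNPA3 at -0.295, HNRNPAB at -0.289, HNRNPF at -0.467, HNRNPH3 at -0.224, HNRNPL at -0.219, HNRNPM at -0.277, HNRNPR at -0.0852, HNRNPU at -0.00811, HNRNPUL1 at -0.395, HNRNPUL2 at -0.577, PTBP1 at -0.0128 and MBNL1 at -0.512. With 1.0 µM THZ531 it did so for SRSF2 at -0.235, SRSF9 at -0.25, TRA2A at -0.438, TRA2B at -0.128, CLK1 at -0.424, HNRNPA1 at -0.137, HNRNPA3 at -0.00631, HNRNPAB at -0.156, HNRNPH1 at -0.507, HNRNPH3 at -0.0859, HNRNPK at -0.0141, HNRNPL at -0.196, HNRNPM at -0.183, HNRNPR at -0.0417, HNRNPU at -0.0556, HNRNPUL1 at -0.253, HNRNPUL2 at -0.532, PTBP1 at -0.254 and MBNL1 at -0.372. Of the genes named in the report, the interactions turned for SRSF9 at -0.151 and PTBP1 at -0.00415 with lapatinib and for SRSF9 at -0.182 and SRPK2 at -0.0811 with nilotinib. With library size alone the values that turned were SRSF2 at -0.129, SRSF9 at -0.106, HNRNPA1 at -0.0163, HNRNPA3 at -0.0039 and HNRNPM at -0.0192 with lapatinib and THZ531, SRSF2 at -0.224, SRSF9 at -0.0664, HNRNPA1 at -0.0188, HNRNPUL1 at -0.0764 and MBNL1 at -0.184 with nilotinib and THZ531, TRA2A at -0.148, HNRNPH1 at -0.216 and MBNL1 at -0.0784 with 1.0 µM THZ531, and the interaction of SRSF2 at -0.224 with nilotinib. With upper-quartile scaling SRSF6 at 0.156 with 1.0 µM THZ531 was the 1 such value. Members called in neither fit changed sign too, 2, 3 and 2 of the 48 in the 3 treatments under the mitochondrial mRNA scaling, 2, 3 and 2 with library size alone, 7, 4 and 4 with upper-quartile scaling and 3, 1 and 1 with RLE size factors.

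Counts of called members moved as follows, with no count of all genes called under the same alternative beside them. Under the mitochondrial mRNA scaling 33 were lower and 2 higher with lapatinib and THZ531, 30 and 2 with nilotinib and THZ531, 29 and 0 with 1.0 µM THZ531, and 0 and 0 with 0.1 µM THZ531. It left 4 higher with lapatinib and THZ531 than with 1.0 µM THZ531, 8 lower and 4 higher with nilotinib and THZ531 than with 1.0 µM THZ531, 23 below and 2 above the sum for lapatinib, and 2 above it for nilotinib. SR proteins were then 11 lower with lapatinib and THZ531 and 0, 0 and 0 higher in the 3 treatments, and hnRNPs 13, 10 and 7 lower and 0, 0 and 0 higher. With library size alone 24 members were lower with lapatinib and THZ531, 8, 9 and 8 higher in the 3 treatments, 3 lower with 0.1 µM THZ531, 1 lower between both combinations, 22 below and 7 above the sum for lapatinib and 11 above it for nilotinib, with 0, 0 and 0 SR proteins higher, 6, 5 and 6 hnRNPs lower and 4, 4 and 7 higher. Upper-quartile scaling gave 3 lower with 0.1 µM THZ531, 2 SR proteins higher with nilotinib and THZ531 and 1 hnRNP lower with 1.0 µM THZ531. RLE size factors moved none of these counts by over 1.5 times.

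The low count with 0.1 µM THZ531 (1 lower, 1 higher) became 3 lower with a filter of 10 counts in every library, 2 lower and 2 higher with DESeq2, 4 lower in a fit of only the groups compared and 2 lower with counts halved and rounded. The fit of only the groups compared, which holds fewer samples, gave 9 lower for lapatinib and THZ531 against 1.0 µM THZ531 and 7 lower and 6 higher for nilotinib and THZ531. Without a filter 2 SR proteins were higher with nilotinib and THZ531. Between both combinations 1 member was lower with the stricter filter and 1 with DESeq2. Leaving out each of the 21 libraries in turn gave 0 to 1 members higher and 1 to 2 lower with 0.1 µM THZ531, 0 to 1 in each direction between both combinations, 6 to 11 higher with nilotinib and THZ531 than with 1.0 µM THZ531 and 1 to 2 SR proteins higher with lapatinib and THZ531. Apart from the calls named in the report, the interaction with nilotinib was lost for SRSF9 on leaving out each of 5 libraries in turn (lowest value 0.228, adjusted p = 0.0586), for SRPK2 on leaving out each of 4 (lowest 0.262, adjusted p = 0.106) and for HNRNPU without replicate 3 of the nilotinib combination (0.536, adjusted p = 0.0505), and calls between a combination and 1.0 µM THZ531 for HNRNPLL and PTBP1 (lapatinib, smallest values -0.208 and 0.188) and TRA2B (nilotinib, 0.153). SRSF1 with 0.1 µM THZ531, and SRPK1 between both combinations, came under the threshold with several alternatives (adjusted p from 0.0231 and 0.0185). Where no cause is given by the alternative itself, the cause was not tested.

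Libraries with the same replicate number deviated together only in part. Over 7166 genes the correlation of their deviations from the group means was 0.161 on average (-0.847 to 0.912), with 36 of 63 pairs over 0.1. For different numbers it was -0.0735 on average (-0.861 to 0.866), with 50 of 126 pairs over 0.1. Some libraries thus deviated together whatever their numbers, and the numbers were not taken to pair the samples. With the replicate number as a block, 2 members were lower with 0.1 µM THZ531 and 1 was lower between both combinations, and the other counts stayed within 1.5 times. Depth limits RBM47 with nilotinib and THZ531 (4 to 14 counts), HNRNPH2 and SRSF12, and NOVA2 of the pathway lists.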
